A study of Mus musculus with 12 samples.

Results

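The genes of major histocompatibility complex (MHC) class I and of the interferon response were followed in endothelial cells sorted from embryonic mouse hearts. They are 38 genes named by symbol, and all 38 were found among the 41214 genes of the deposited table through their Ensembl identifiers. They comprise 4 class I chains (H2-D1, H2-K1, H2-T23, B2m), 3 genes of peptide transport and loading (Tap1, Tap2, Tapbp), 3 immunoproteasome subunits (Psmb8, Psmb9, Psmb10) and 5 transcriptional regulators (Nlrc5, Irf1, Irf7, Irf9, Stat2). The others are 7 surface and membrane proteins, 3 guanylate-binding proteins and 13 antiviral effectors and genes of the ISG15 system. The rule that picks them uses no measured value, although the list was drawn up with earlier results of these data known. Of the 38 genes, 37 had enough counts to be tested, and Nlrc5 did not.

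MHC class I molecules carry peptides from inside the cell to its surface, where T cells and natural killer cells read them. The immunoproteasome cuts the peptides, the TAP transporter moves them into the endoplasmic reticulum, and tapasin helps load them on a heavy chain paired with beta-2 microglobulin. Interferons bind receptors that activate STAT proteins. A complex that includes STAT2 and IRF9 binds the interferon-stimulated response element (ISRE), STAT dimers bind the gamma-activated site (GAS), and many class I and antiviral genes are among the targets. Endothelial cells express class I constitutively and are known to raise it strongly when exposed to interferon.

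The series holds 12 bulk RNA-seq libraries in 4 groups. The E17 coronary group (n = 2 libraries) and the E17 endocardial group (n = 2) came from E17.5 embryos. These carried the transgene Nes-Gfp(Tg/0) together with Nes-CreER(Tg/0), an inducible Cre driven by nestin sequence, and the reporter allele R26(tom/+), and had received 0.1 ug of tamoxifen at E15.5. The E13 coronary group (n = 4) and the E13 endocardial group (n = 4) came from Nes-gfp(Tg/0) embryos of E13.5, for which no Cre, reporter or tamoxifen is given. The stages therefore also differ in genotype, in tamoxifen exposure and in the sort gates given below, and these cannot be told apart from age. All groups carry the green fluorescent protein (GFP) transgene driven by nestin sequence. The gates given below use GFP for the E17 endocardial and both E13 groups, and name none for the E17 coronary group. Endocardial cells line the heart chambers, and coronary cells come from the vessels of the ventricular wall. All cells were alive, negative for Ter119 and CD45 (markers of red cells and leukocytes) and positive for CD31. The E17 endocardial gate is given as GFP-positive. The E17 coronary cells were low in endomucin, from a Tomato-positive gate for arteries and capillaries or a Tomato-negative gate for veins, and the labels do not say which. The E13 coronary gate took GFP-positive cells, and the E13 endocardial gate combined low GFP with high endomucin. Replicates are not said to be from different litters, and p-values then cover the library to library spread alone, which may be technical.

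Library totals were 14973633 to 17746457 expected counts in E17 coronary, 16371834 to 19168912 in E17 endocardial, 17677860 to 21560343 in E13 coronary and 17395783 to 27360653 in E13 endocardial libraries. CPM levels divide the counts by a library size that TMM factors adjust, and each log2 fold change is followed by ± its SE. The 10 endothelial markers (Pecam1, Cdh5 and others) were present in every library, with summed levels of 11203 to 12560 CPM in E17 coronary, 8539.8 to 8986 CPM in E17 endocardial, 5594 to 7658 CPM in E13 coronary and 8418 to 9376 CPM in E13 endocardial libraries. The 10 endocardial markers summed to 402 to 425 CPM in E17 coronary libraries and 8381 to 8716 CPM in E17 endocardial libraries. At E13 they summed to 1870.4 to 2470.1 CPM in coronary libraries and 7339 to 8016 CPM in endocardial libraries, so the E13 coronary libraries carried more endocardial marker RNA than those of E17. The 11 fibroblast markers summed to 2246 to 4933 CPM in E17 coronary, 2235 to 2474 CPM in E17 endocardial, 2752 to 7186 CPM in E13 coronary and 1850.1 to 2082 CPM in E13 endocardial libraries. E13 coronary replicate 3 had the highest of these sums and replicate 1 of that group the lowest of the 4. In bulk RNA, fewer cells of a type and less RNA per cell cannot be told apart.

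Promoters are printed for members that passed in the same direction in both coronary to endocardial comparisons, taking the 4 with the smallest adjusted p at E13: Bst2, Gbp8, Rsad2 and Gbp2. Isg15 was added after its matches were seen, to show an ISRE core repeated in tandem. RefSeq windows of build GRCm38.p6, from 250 bases before to 50 bases after the transcription start, were found for 30 of the 38 members, and Gbp8 has none among them. Capitals mark matches to the ISRE core, which is GAAA, any 2 bases and GAAA again (TTTC, any 2 bases and TTTC on the reverse strand), or to the palindromic GAS letters, which are TTC, any 3 bases and GAA. Bst2 lies at chr8:71537423-71537722 (minus strand), Rsad2 at chr12:26456403-26456702 (minus strand), Gbp2 at chr3:142620413-142620712 (plus strand) and Isg15 at chr4:156200769-156201068 (minus strand), each written 5′ to 3′ along the gene.
Bst2: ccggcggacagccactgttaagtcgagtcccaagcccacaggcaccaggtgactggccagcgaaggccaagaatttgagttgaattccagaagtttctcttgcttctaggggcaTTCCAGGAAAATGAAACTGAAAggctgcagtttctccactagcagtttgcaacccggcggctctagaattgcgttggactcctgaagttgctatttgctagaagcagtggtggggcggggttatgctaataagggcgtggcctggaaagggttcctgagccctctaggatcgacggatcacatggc
Rsad2: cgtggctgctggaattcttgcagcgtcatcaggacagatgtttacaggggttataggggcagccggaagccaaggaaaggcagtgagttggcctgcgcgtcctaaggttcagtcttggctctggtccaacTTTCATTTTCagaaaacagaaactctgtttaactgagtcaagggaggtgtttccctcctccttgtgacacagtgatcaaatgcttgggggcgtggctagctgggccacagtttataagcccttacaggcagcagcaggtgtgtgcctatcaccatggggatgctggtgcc
Gbp2: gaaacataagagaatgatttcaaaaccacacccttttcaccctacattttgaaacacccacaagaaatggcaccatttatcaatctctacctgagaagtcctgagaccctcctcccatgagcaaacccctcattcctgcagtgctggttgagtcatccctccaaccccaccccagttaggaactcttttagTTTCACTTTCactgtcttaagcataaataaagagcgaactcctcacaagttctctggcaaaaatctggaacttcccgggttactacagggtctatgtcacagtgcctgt
Isg15: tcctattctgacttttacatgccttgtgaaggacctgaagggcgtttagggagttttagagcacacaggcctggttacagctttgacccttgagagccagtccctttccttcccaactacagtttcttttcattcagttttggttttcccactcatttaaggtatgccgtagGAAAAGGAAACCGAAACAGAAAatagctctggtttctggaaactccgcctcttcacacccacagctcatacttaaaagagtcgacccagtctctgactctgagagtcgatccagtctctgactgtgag

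Bst2 was lower in coronary cells at both stages and Rsad2 higher at both, and each holds the ISRE core. In Bst2 a GAS match starting at position -136 runs into ISRE cores starting at -130 and -124, counted from the transcription start. The ISRE core of Rsad2 starts at -120 and that of Gbp2 at -59, both on the reverse strand, and in Isg15 cores start at -78, -72 and -66. The ISRE core was found in 13 of the 30 member windows and in 3.44% of 32851 windows of the same length, searched on both strands. The 13 members are B2m, Bst2, Gbp2, Gbp7, H2-T23, Ifih1, Ifit1, Ifit3, Ifitm2, Ifitm3, Isg15, Rsad2 and Stat2. The GAS letters were found in 7 member windows (Bst2, Gbp7, Ifi35, Ifit2, Ifitm3, Irf1, Psmb8) and in 8.3% of all windows. Matches of the 2 motifs overlap each other in Bst2 and Ifitm3. A match is a description of these letters and not a measured binding site.

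Across the 4 groups the members were mostly lowest in E13 coronary cells and mostly highest in E17 coronary cells. The mean level was highest in the E17 coronary group for 25 of the 37 tested members, in E17 endocardial for 9, in E13 coronary for 1 (Ifitm1) and in E13 endocardial for 2. It was lowest in E13 coronary cells for 28 members, in E13 endocardial for 7, and in each E17 population for 1. These counts rank group means without a test, so a highest mean is not a called difference. The shares over all genes were not counted. The summed level of all 38 members was 2349 and 2438 CPM in the E17 coronary libraries and 1668 and 1630.3 CPM in the E17 endocardial libraries. At E13 it ran from 812 to 969 CPM in the coronary libraries and from 1127 to 1223 CPM in the endocardial libraries, and the 4 groups did not overlap. This sum is weighted to abundant members. At E17 the 7 surface and membrane members, Ly6e among them, summed to 1015 and 1092 CPM in coronary and 525 and 540 CPM in endocardial libraries. The 5 transcriptional regulators (208 to 233 against 246 to 265 CPM) and 3 guanylate-binding proteins (53.6 to 56.0 against 75.6 to 87.3 CPM) summed lower in coronary libraries. The other roles summed higher there.

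**Figure D1:**
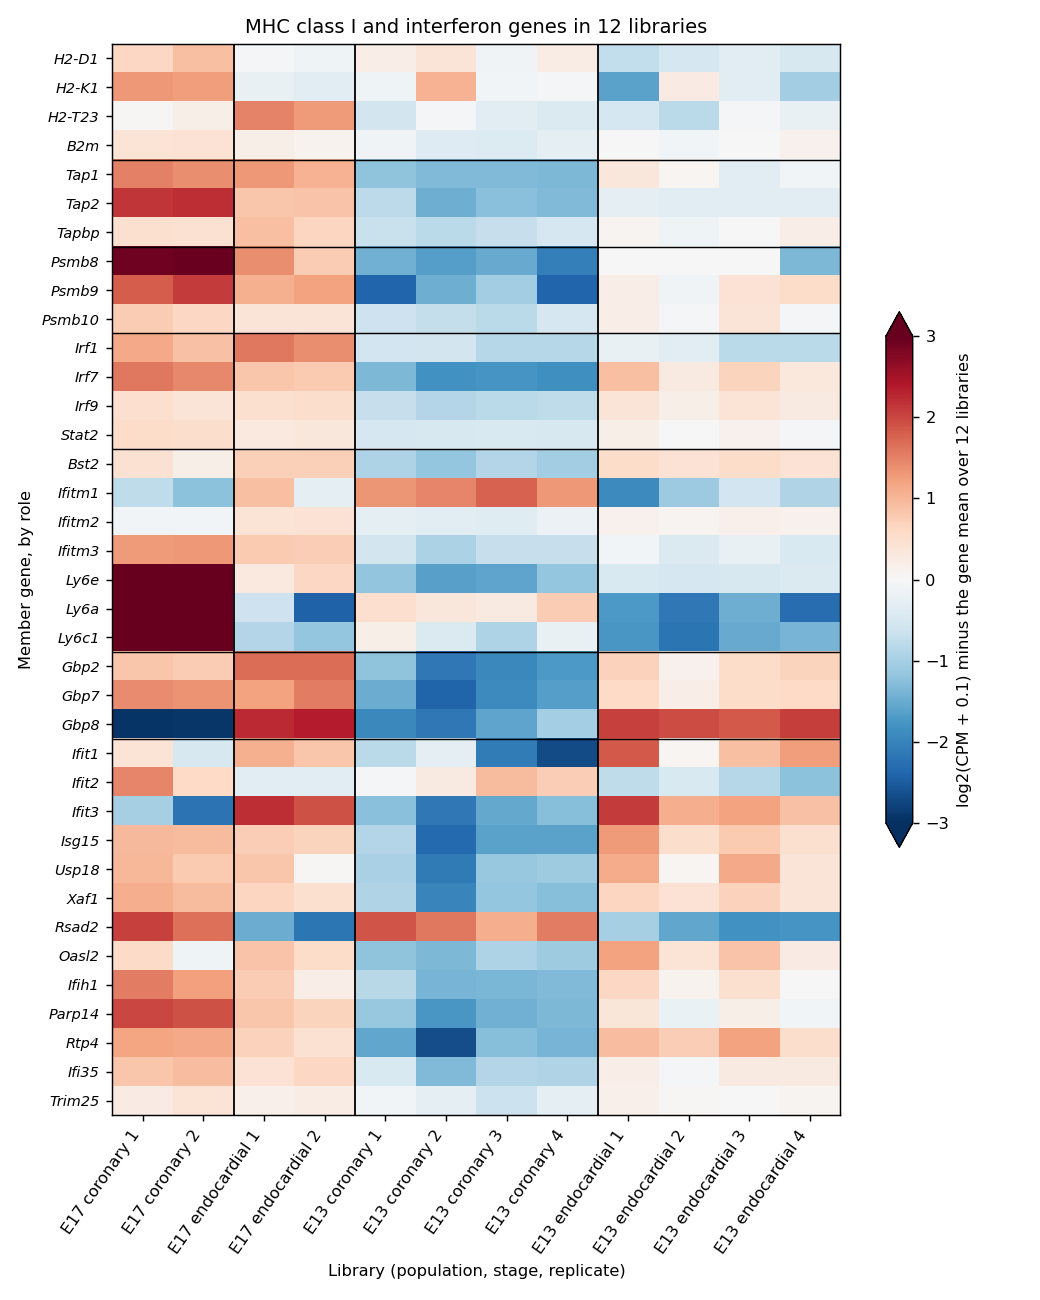
Level of each of the 37 tested members in each library, as log2(CPM + 0.1) minus the gene's mean over the 12 libraries, with the colour scale ending at 3 on either side; columns are libraries by group and rows are genes by role. Most rows are lowest in the 4 E13 coronary columns, and 25 of 37 tested members have their highest group mean in E17 coronary cells. This ranks means without a test, and the share over all genes was not counted.

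At E17, 15 of the 37 tested members were higher in coronary than endocardial cells, 8 were lower and 14 did not pass (edgeR's quasi-likelihood test, Benjamini-Hochberg adjusted p under 0.05), against 26.5% of all 15171 genes tested higher, 26.1% lower and 52.6% passing in either direction. The members' median log2 fold change was 0.30, beside -0.01 over all genes. At E13 the split was the other way, with 6 members higher in coronary cells, 28 lower and 3 not passing, against 30.1% and 29.9% of all genes and 60.0% in either direction. The libraries of the 2 populations did not overlap for 33 members at E17 and for 34 at E13, against 76% and 55.5% of all genes. The median at E13 was -1.06, beside -0.02 over all genes. There 19 members passed and were at least 2-fold lower, against 950 of all 15171 genes. No lower call at E13 was lost under any of the alternatives run, including without E13 coronary replicate 3, the library richest in fibroblast markers. The E17 counts rest on 2 libraries a group. Without E17 coronary replicate 1 they were 10 higher and 6 lower, without replicate 2 of that group 11 and 4, without E17 endocardial replicate 1 11 and 6, and without its replicate 2 10 and 8. Each member called at a stage had the called sign in every batch of that stage, a batch being 1 coronary and 1 endocardial library that share a batch label. The batches hold the same libraries that gave the calls, so this is no independent support. The number of members lower in coronary cells was 30, 29, 30 and 30 in E13 batches 1 to 4, while 26 and 24 were higher in E17 batches 5 and 6. Over all genes tested the median log2 ratio lay between -0.02 and 0 in every batch, and the shares higher and lower were not counted.

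Between stages, 29 members were higher at E17 than at E13 in coronary cells, 2 were lower (Ifitm1 and Gbp8) and 6 did not pass, against 24.6% of all genes higher, 25.6% lower and 50.1% in either direction. The median log2 fold change was 1.71, beside -0.02 over all genes. Of the members 25 passed and were at least 2-fold higher, against 1009 of all 15171 genes. In endocardial cells 15 members were higher at E17, none was lower and 22 did not pass, against 16.2% of all genes higher, 15.6% lower and 31.8% in either direction. The stages did not overlap for 33 members in coronary cells and for 23 in endocardial cells, against 60.5% and 52.6% of all genes. There the median was 0.35, beside 0.00 over all genes, and without E17 endocardial replicate 1 the count fell to 10. Both stage comparisons are each made within 1 population, whose sort gate differs between the stages. The coronary to endocardial difference was tested against stage directly. The signed coronary minus endocardial effect was more positive at E17 than at E13 for 26 members, more negative for 3 (H2-T23, Ifitm1, Gbp8) and did not pass for 8, against 16.2% and 16.5% of all genes and 32.7% in either direction.

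Endothelial markers moved in part with the members. The list of 10 includes Emcn, which encodes endomucin, so its direction is not independent of the gates that used endomucin. Of the 10, 7 were lower and 2 higher in E13 coronary than E13 endocardial cells with a median log2 fold change of -0.25, while at E17 6 were higher and 3 lower in coronary cells (median 0.38), and 9 were higher and 1 lower in E17 than E13 coronary cells with a median of 0.93. Of the 11 fibroblast markers, 10 were higher in E13 coronary than E13 endocardial cells (median 3.67) and none was lower. At E17 6 were higher and 2 lower in coronary than endocardial cells (median 1.21), and between stages in coronary cells 2 were higher and 5 lower at E17 (median -0.40). Of 10 mural cell markers, 9 were higher in coronary than endocardial cells at E17 (median 2.61) and 6 at E13 (median 2.90), and none was lower at either stage. They summed to 863 to 1124 CPM in E17 coronary, 179 to 180.0 CPM in E17 endocardial, 384 to 743 CPM in E13 coronary and 249 to 272 CPM in E13 endocardial libraries. Of 8 epicardial markers, 4 were higher and none lower in coronary cells at E17, and 6 were higher and 1 lower at E13. Their sums were 145 to 157 CPM in E17 coronary, 14.1 to 15.7 CPM in E17 endocardial, 81.5 to 95.3 CPM in E13 coronary and 17.1 to 21.3 CPM in E13 endocardial libraries. The part of these cell-type markers in the members' differences was not tested. Leukocyte markers, which stand for cells rich in class I and interferon genes, summed to 71.8 to 74.5 CPM in E17 coronary, 37.3 to 38.4 CPM in E17 endocardial, 49.2 to 72.2 CPM in E13 coronary and 21.2 to 28.3 CPM in E13 endocardial libraries. Most of this was Mrc1, with 68.2, 19.8, 47.0 and 13.3 CPM in the same groups, and Ptprc, which encodes CD45, averaged 0 CPM in E17 coronary, 0.348 in E17 endocardial, 0.0378 in E13 coronary and 0.0678 in E13 endocardial libraries. CD45 was also a negative marker of the sort. Of the 16 leukocyte markers, 7 were too low to test, among them Ptprc, Itgam, Tyrobp, Cd3e, Cd74 and H2-Aa. Of the 9 tested, 4 were higher and 1 lower in coronary than endocardial cells at E13, and 1 was higher and 2 lower at E17. Between stages in coronary cells 1 was higher and 3 lower at E17. The part of leukocyte RNA in the members' differences was not tested either.

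**Figure D2:**
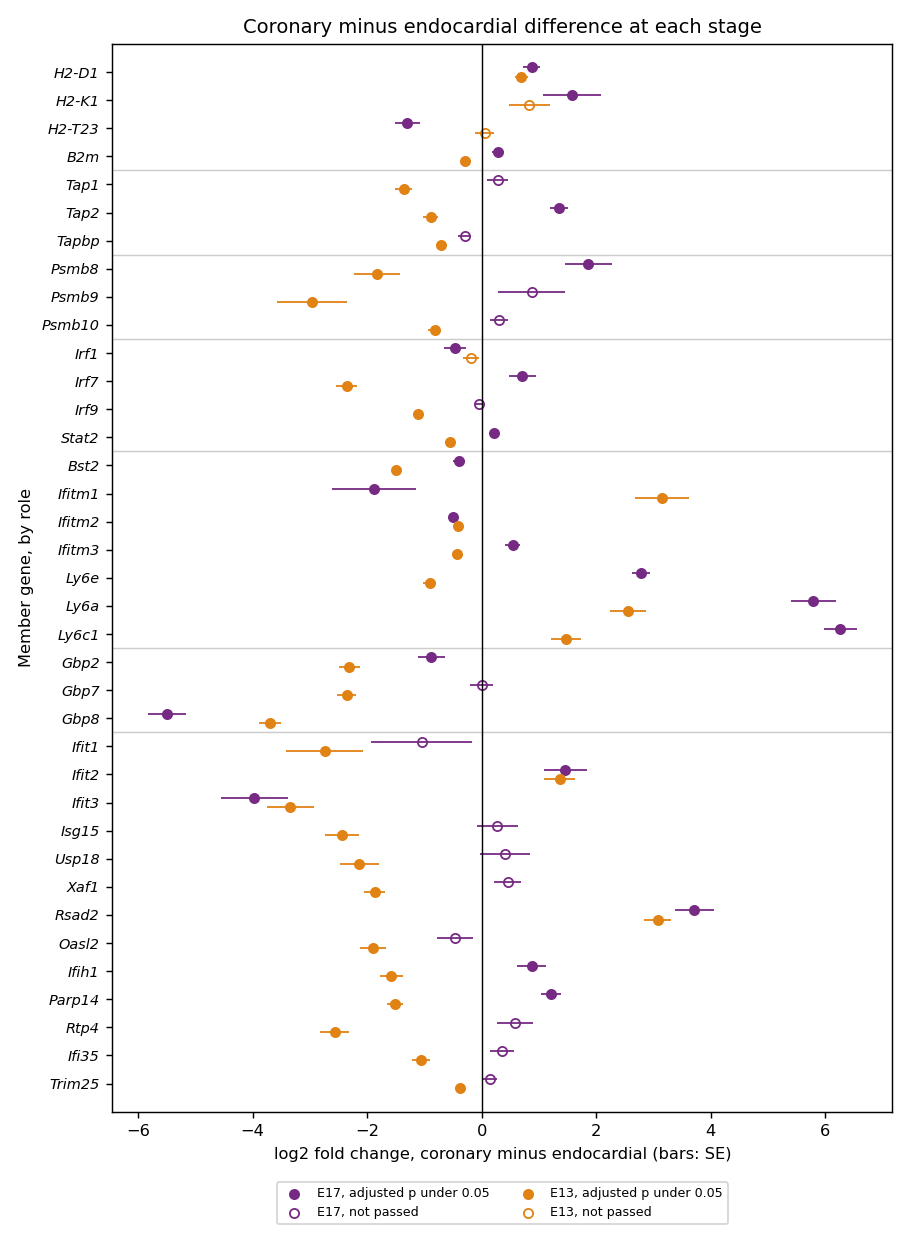
Coronary minus endocardial log2 fold change of each tested member at E17 and at E13, with SE bars; filled points passed at an adjusted p under 0.05. At E17, 15 members lie right of 0 and passed, while at E13 28 lie left of 0 and passed.

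The 4 class I chains differed among themselves: 3 were higher in coronary cells at E17 and 1 was lower. H2-D1, a classical heavy chain (chr17:35262730-35267499, GRCm38), had 226 and 273 CPM in E17 coronary libraries and 141 and 133 CPM in E17 endocardial libraries. At E13 it had 169, 192, 135 and 170 CPM in coronary libraries and 88.1, 103, 116 and 105 CPM in endocardial libraries. Every coronary library stood above every endocardial library of its stage. The log2 fold change was 0.87 ± 0.15 at E17 (edgeR adjusted p = 0.000431) and 0.69 ± 0.11 at E13 (0.000133), and the difference between the 2 effects was 0.17 ± 0.19 (edgeR adjusted p = 0.523). H2-D1 was 0.58 ± 0.13 higher on the log2 scale at E17 than E13 in coronary cells (0.00231; 0.0501 without E17 coronary replicate 2) and 0.41 ± 0.13 higher in endocardial cells (0.0295), an endocardial call lost without either E17 endocardial library (0.171 and 0.093) or without E13 endocardial replicate 1 or 2 (0.0683 and 0.056).

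B2m, which encodes the light chain shared by all class I molecules, changed side between the stages. It had 303 and 306 CPM in E17 coronary libraries, against 255 and 245 CPM in E17 endocardial libraries. At E13 coronary libraries had 212, 173, 170 and 189 CPM, against 229, 215, 225 and 249 CPM in endocardial libraries. Coronary cells were above endocardial cells at E17 and below them at E13, with no overlap at either stage. The effect was 0.28 ± 0.10 at E17 (edgeR adjusted p = 0.0266, but 0.0913 without E17 coronary replicate 2, 0.068 without E17 endocardial replicate 1 and 0.117 without its replicate 2) and -0.30 ± 0.07 at E13 (0.00215). The difference of 0.59 ± 0.12 between them passed (edgeR adjusted p = 0.00251). B2m was higher at E17 than E13 by 0.71 ± 0.08 in coronary cells (1.89e-05), and in endocardial cells the estimate was 0.12 ± 0.08 (0.298).

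H2-K1, the other classical heavy chain among the members, had 30.5 and 29.2 CPM in E17 coronary libraries and 10.4 and 9.59 CPM in E17 endocardial libraries. At E13 it had 11.2, 25.4, 11.5 and 11.7 CPM in coronary libraries and 3.98, 14.5, 9.6 and 5.89 CPM in endocardial libraries. Replicate 2 was the highest in both E13 groups, and both its libraries share a batch label. At E17 the effect was 1.58 ± 0.51 (edgeR adjusted p = 0.0208), a call lost when any 1 of the 4 E17 libraries was left out (0.0613 and 0.0571 without coronary replicates 1 and 2, 0.0825 and 0.094 without endocardial replicates 1 and 2). At E13 the groups overlapped and the effect of 0.83 ± 0.36 did not pass (0.0661), while with batch as a block it was 0.86 and passed (0.00178). The E13 effect also passed with library totals (0.0463) and with no filter on low counts (0.0327). The same held without E13 coronary replicate 1 (0.044) or E13 endocardial replicate 2 (0.0102). Without E13 coronary replicate 2 the stage difference in coronary cells, 0.99 ± 0.41 with all libraries (0.0648), was 1.37 and passed (0.0111). It also passed with no filter on low counts (0.0328), with only the 2 groups compared (0.0451) and without E13 endocardial replicate 1 (0.0368) or 2 (0.0358).

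H2-T23, the mouse Qa-1 heavy chain that presents leader peptides to natural killer cells, went the other way from the rest. It had 10.6 and 11.6 CPM in E17 coronary libraries, against 29.2 and 25.3 CPM in E17 endocardial libraries. The E13 libraries overlapped, with 7.03 to 9.96 CPM in coronary and 5.86 to 9.9 CPM in endocardial cells. The E17 endocardial libraries were the only high ones, and H2-T23 was 3.45-fold higher there than in E13 endocardial cells (log2 1.79 ± 0.18, edgeR adjusted p = 2.29e-05). The population effect was -1.30 ± 0.22 at E17 (0.000348) and 0.05 ± 0.16 at E13 (0.793), and the difference of -1.35 ± 0.27 passed (0.00249).

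The 3 genes of peptide transport and loading rose with stage in both populations, by more in coronary cells. Tap2, a TAP transporter subunit (chr17:34203527-34216321), had 43.5 and 45.6 CPM in E17 coronary libraries and 17.2 and 17.7 CPM in E17 endocardial libraries. E13 coronary libraries had 5.63, 3.42, 4.03 and 3.84 CPM and E13 endocardial libraries 8.08, 7.59, 7.7 and 7.79 CPM. No 2 groups overlapped, and coronary cells were the highest at E17 and the lowest at E13. Tap2 was 10.6-fold higher at E17 than E13 in coronary cells (log2 3.40 ± 0.14, edgeR adjusted p = 1e-08) and 2.24-fold higher in endocardial cells (1.16 ± 0.14, 7.83e-05). Its population effect was 1.35 ± 0.16 at E17 (1.92e-05) and -0.89 ± 0.13 at E13 (7.2e-05).

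Tap1, the partner subunit of Tap2, had 16.1 and 15 CPM in E17 coronary and 13.9 and 11.7 CPM in E17 endocardial libraries. It had 2.38, 2.17, 2.17 and 2.13 CPM in E13 coronary libraries and 7.07, 5.81, 4.45 and 5.29 CPM in E13 endocardial libraries. The effect did not pass at E17 (0.28 ± 0.18, edgeR adjusted p = 0.223) and was -1.36 ± 0.15 at E13 (6.76e-06), and Tap1 was 7.03-fold higher in E17 than in E13 coronary cells. Tapbp, which encodes tapasin, had 68.2 and 67 CPM in E17 coronary, 90.2 and 75.8 CPM in E17 endocardial, 27.8 to 34.5 CPM in E13 coronary and 44.2 to 56.1 CPM in E13 endocardial libraries. Its effect of -0.30 ± 0.12 at E17 missed the threshold (edgeR adjusted p = 0.0512) but passed with batch as a block (-0.29, 0.00769). The E17 effect also passed with library totals (0.0489) and without E13 coronary replicate 2 or 4 or E13 endocardial replicate 2 or 4 (0.0379 to 0.0499). It was -0.41 without E17 endocardial replicate 2. At E13 the Tapbp effect was -0.71 ± 0.09 (1.83e-05). The stage difference of the Tapbp effect, 0.41 ± 0.15, passed narrowly (edgeR adjusted p = 0.049) and was lost in 9 of the 12 fits that leave out 1 library (0.0609 to 0.209). It held without E17 endocardial replicate 1, E13 coronary replicate 4 or E13 endocardial replicate 2, and was lost with library totals (0.31, 0.114).

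The immunoproteasome subunits Psmb8 and Psmb9 had the second and the third largest fitted rise with stage in coronary cells among the members, after Ly6c1, from counts near 0. Psmb8 (chr17:34197721-34201454) had 6.38 and 6.59 CPM in E17 coronary libraries and 2.18 and 1.36 CPM in E17 endocardial libraries. At E13 it had 0.216, 0.173, 0.202 and 0.107 CPM in coronary libraries and 0.752, 0.769, 0.75 and 0.238 CPM in endocardial libraries. Each E13 endocardial library was above each E13 coronary library, and E13 endocardial replicate 4 was far below the other 3 of its group. The pooled counts were 203 in E17 coronary and 14 in E13 coronary cells, a ratio of 37.2 with an exact interval (95%) of 21.6 to 69.2, which covers counting error only. Between populations the fitted effect was 1.86 ± 0.41 at E17 (edgeR adjusted p = 0.00216) and -1.83 ± 0.40 at E13 (0.00182). In endocardial cells the rise with stage was 1.47 ± 0.37 (0.00988, but 0.152 without E17 endocardial replicate 1).

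Psmb9 was lower still, with 1.71 and 2.1 CPM in E17 coronary, 0.982 and 1.1 CPM in E17 endocardial, 0 to 0.151 CPM in E13 coronary and 0.384 to 0.654 CPM in E13 endocardial libraries. The E13 coronary libraries held 5 counts in all, 3 of them in replicate 3, against 44 in E13 endocardial libraries, a ratio of 0.119 (0.037 to 0.3). In coronary cells 60 counts at E17 stood against 5 at E13, a ratio of 30.8 (12.5 to 98.1). Psmb9 did not pass between populations at E17 (0.87 ± 0.58, edgeR adjusted p = 0.231) and was lower in coronary cells at E13 (-2.97 ± 0.61, 0.0011). Psmb10 moved less, with 18.4 and 16.6 CPM in E17 coronary, 14.2 and 14.3 CPM in E17 endocardial, 6.1 to 7.57 CPM in E13 coronary and 10.6 to 14.1 CPM in E13 endocardial libraries, and its effects were 0.30 ± 0.15 at E17 (0.125) and -0.82 ± 0.11 at E13 (4.85e-05).

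Tap1, Tap2, Psmb8 and Psmb9 stand next to each other on chromosome 17, and the models of Psmb9 and Tap1 overlap on opposite strands. No strand is stated for these libraries, so reads in the overlap could not be assigned between that pair here. Tap1 averaged 7.35 CPM over all libraries and Psmb9 0.688 CPM.

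Of the 4 tested transcriptional regulators, Irf7, an interferon-induced factor that amplifies the type I response, had the largest coronary to endocardial effects. It had 10.1 and 9.1 CPM in E17 coronary libraries and 5.95 and 5.77 CPM in E17 endocardial libraries. At E13 coronary libraries had 1.24, 0.866, 0.908 and 0.853 CPM, against 6.28, 3.99, 5.35 and 4.16 CPM in endocardial libraries. Endocardial levels overlapped between the stages, while coronary levels lay below them at E13 and above them at E17. Irf7 was 5.12-fold lower in coronary than endocardial cells at E13 (log2 -2.36 ± 0.19, edgeR adjusted p = 6.27e-07) and 9.88-fold higher in E17 than E13 coronary cells (3.31 ± 0.21, 2.01e-07). At E17 the effect of 0.71 ± 0.23 (0.0228) was lost when any 1 of the 4 E17 libraries was left out (0.087 and 0.0508 without coronary replicates 1 and 2, 0.0803 and 0.091 without endocardial replicates 1 and 2). The model of Phrf1 overlaps Irf7 on the opposite strand at a mean of 82.6 CPM against 4.55 CPM for Irf7. The population effect of Phrf1 was 0.09 ± 0.07 at E17 and 0.10 ± 0.05 at E13.

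Irf9 and Stat2, which belong to the complex that binds the ISRE, were both lower in coronary cells at E13. Irf9 had 50.5 and 47.1 CPM in E17 coronary, 49.9 and 51.3 CPM in E17 endocardial, 19.6 to 22.2 CPM in E13 coronary and 40.8 to 47.6 CPM in E13 endocardial libraries. The E13 coronary group stood below the other 3, with an effect of -0.05 ± 0.08 at E17 (edgeR adjusted p = 0.635) and -1.11 ± 0.06 at E13 (2.87e-08). Stat2 had 49.7 and 48.6 CPM in E17 coronary, 41.7 and 42.7 CPM in E17 endocardial, 24 to 24.6 CPM in E13 coronary and 32.3 to 38.3 CPM in E13 endocardial libraries. The Stat2 effect was 0.22 ± 0.08 at E17 (0.0307) and -0.55 ± 0.06 at E13 (3.95e-06). The E17 call was lost when any 1 of the 4 E17 libraries was left out (0.0735 to 0.127) and with no filter on low counts (0.0695). Irf9 shares its region with Rnf31 on the same strand, whose effect was -0.14 ± 0.07 at E17 and -0.50 ± 0.05 at E13.

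Irf1, a factor that drives class I and immunoproteasome genes, followed stage more than population. It had 123 and 103 CPM in E17 coronary, 167 and 146 CPM in E17 endocardial, 37.5, 38, 30.9 and 31 CPM in E13 coronary and 47.4, 44.8, 31.8 and 31.6 CPM in E13 endocardial libraries. All E17 libraries were above all E13 libraries, and at E13 the populations overlapped. Irf1 rose with stage by 1.71 ± 0.16 in coronary cells (edgeR adjusted p = 3.22e-06) and by 2.00 ± 0.16 in endocardial cells (3.56e-06), and the difference between these, -0.29 ± 0.23, did not pass (0.379), though with batch as a block it was -0.31 and passed (0.0446). At E17 its effect was -0.47 ± 0.19 (0.0494), a narrow call lost without any 1 of the 4 E17 libraries (0.0616 to 0.259), without E13 coronary replicate 2, 3 or 4 (0.0504 to 0.0599) and under 2 other scalings (0.0596 and 0.0625). At E13 the estimate of -0.18 ± 0.14 did not pass (0.27) but did with batch as a block (-0.17, 0.039). Nlrc5, the transactivator of class I genes, had 2 counts in E17 coronary, 13 in E17 endocardial, 3 in E13 coronary and 15 in E13 endocardial libraries, pooled. Its E17 ratio of 0.166 has an exact 95% interval of 0.0182 to 0.733, and its E13 ratio of 0.21 one of 0.039 to 0.743, both for counting error only. The 2 E17 coronary counts of Nlrc5 were both in replicate 1. Without E13 endocardial replicate 4, which left 6 counts in that group, the E13 ratio was 0.452.

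**Figure D3:**
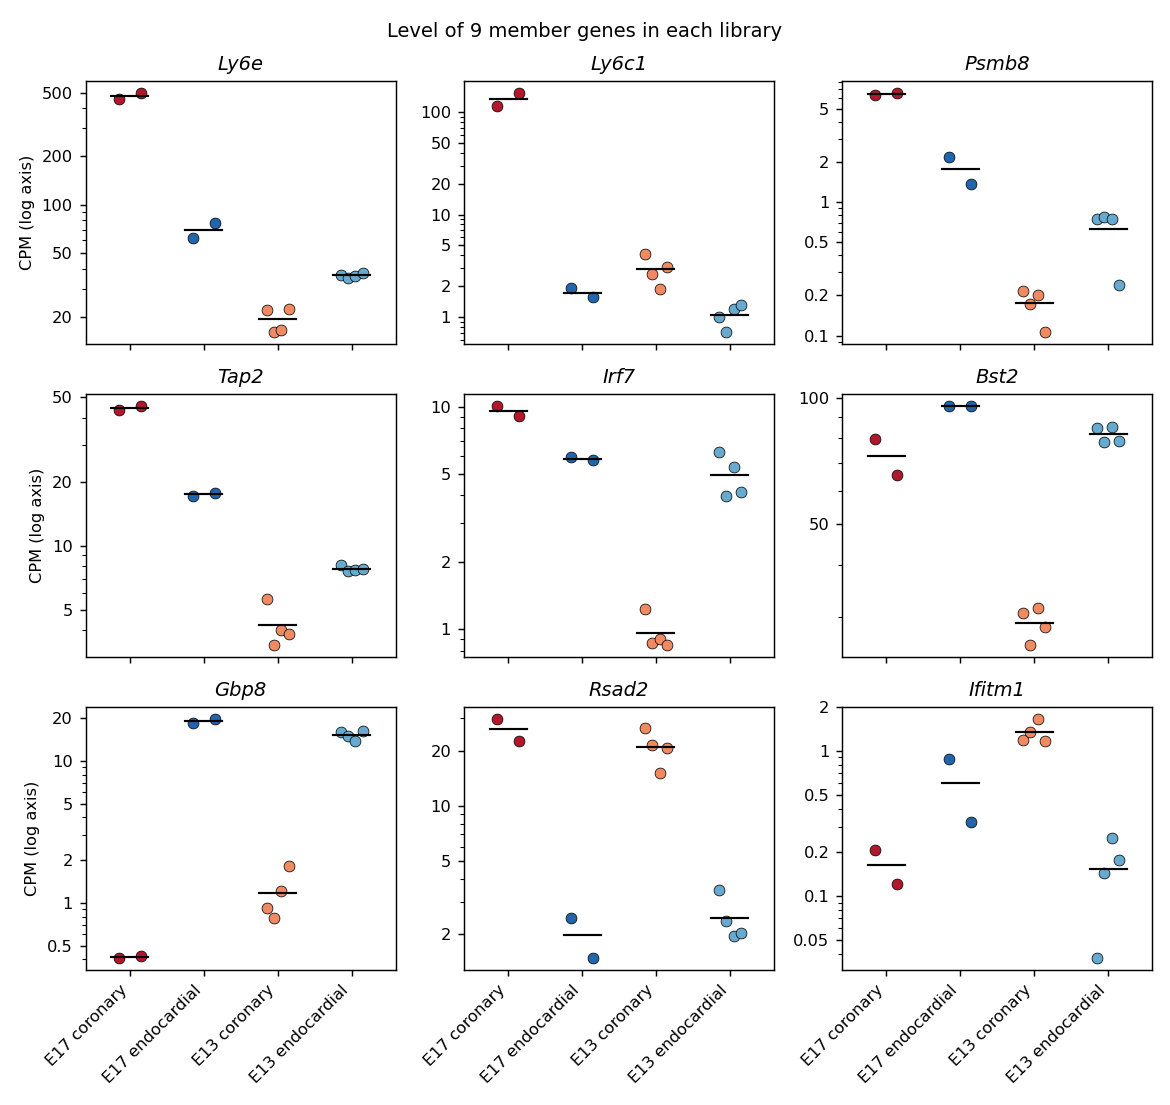
Level of 9 members in CPM on a log axis, 1 point per library and a line at each group mean, with the groups in the order E17 coronary, E17 endocardial, E13 coronary and E13 endocardial. Ly6e, Ly6c1, Psmb8, Tap2 and Irf7 are highest in the E17 coronary libraries, Gbp8 is low in all coronary libraries, Rsad2 is high in all coronary libraries, and Ifitm1 is highest in the E13 coronary libraries.

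The surface and membrane members included the largest differences at E17. Ly6e, a GPI-anchored protein that restricts some viruses and promotes the entry of others (chr15:74955051-74959905), had 455 and 497 CPM in E17 coronary libraries and 61.8 and 76.8 CPM in E17 endocardial libraries. At E13 it had 22.2, 16.2, 16.7 and 22.5 CPM in coronary libraries and 36.6, 35.2, 36.1 and 37.4 CPM in endocardial libraries. Coronary cells were the highest group at E17 and the lowest at E13, with no overlap between any groups. Ly6e was 6.87-fold higher in coronary cells at E17 (log2 2.78 ± 0.15, edgeR adjusted p = 2.11e-08) and 1.88-fold lower at E13 (-0.91 ± 0.11, 1.53e-05), and the difference of 3.69 ± 0.18 passed (1.18e-07). It rose 24.6-fold with stage in coronary cells (4.62 ± 0.12, 4.18e-10) and 1.91-fold in endocardial cells (0.93 ± 0.12, 0.00014).

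Ly6c1, a GPI-anchored protein of mouse endothelium and of some monocytes, had 115 and 153 CPM in E17 coronary libraries and 1.91 and 1.56 CPM in E17 endocardial libraries. At E13 coronary libraries had 4.11, 2.64, 1.87 and 3.09 CPM and endocardial libraries 1.01, 0.721, 1.2 and 1.31 CPM. The E17 coronary libraries stood far above all others, with a 76.6-fold difference from E17 endocardial cells (log2 6.26 ± 0.29, edgeR adjusted p = 7.2e-09) and a 46.0-fold difference from E13 coronary cells (5.52 ± 0.20, 3.21e-09). Ly6a, known as Sca-1, had 35.4 and 46.1 CPM in E17 coronary, 1.15 and 0.259 CPM in E17 endocardial, 2.22 to 3.2 CPM in E13 coronary and 0.297 to 0.6 CPM in E13 endocardial libraries. It was higher in coronary cells by 5.79 ± 0.40 at E17 (2.09e-07) and by 2.55 ± 0.32 at E13 (2.16e-05). The pooled counts at E17, 1285 in coronary and 25 in endocardial libraries, gave a ratio of 55.5 with an exact interval of 37.4 to 86.0, which covers counting error only. Of the 25 endocardial counts 21 were in replicate 1 and 4 in replicate 2, and the ratio was 161 without replicate 1 and 35.8 without replicate 2. Heart capillary markers summed to 7258 to 9517 CPM in E17 coronary, 441 to 446 CPM in E17 endocardial, 944 to 1852 CPM in E13 coronary and 92.7 to 129 CPM in E13 endocardial libraries, and the means of Ly6c1 and Ly6a order the 4 groups as these sums do. Their part in the Ly6 values was not tested. Reads of the near-identical Ly6 genes are shared between copies by the count estimate, so single copies are uncertain.

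Bst2, known as tetherin, which holds budding virus at the cell surface, was lower in coronary cells at both stages. It had 79.5 and 65.5 CPM in E17 coronary libraries and 95.4 and 95.5 CPM in E17 endocardial libraries. E13 coronary libraries had 30.7, 25.8, 31.5 and 28.4 CPM, against 84.6, 78.5, 85.2 and 78.9 CPM in E13 endocardial libraries. The E13 gap was wide and the E17 gap narrow, with effects of -0.40 ± 0.10 at E17 (edgeR adjusted p = 0.00551, but 0.0787 without E17 coronary replicate 2) and -1.49 ± 0.07 at E13 (1.24e-08). The difference of 1.10 ± 0.13 passed (4.22e-05), and with stage Bst2 rose by 1.32 ± 0.09 in coronary cells (2.37e-07), with an estimate of 0.22 ± 0.09 in endocardial cells (0.0694). That endocardial estimate passed with only the 2 groups compared (0.00844) and without E13 coronary replicate 2 (0.0399) or 3 (0.046).

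The 3 Ifitm genes, whose products block virus entry at membranes, each had a pattern of its own. Ifitm3 had 139 and 141 CPM in E17 coronary, 98.6 and 94.8 CPM in E17 endocardial, 29.8 to 39.2 CPM in E13 coronary and 41.4 to 53.6 CPM in E13 endocardial libraries, and changed side with effects of 0.54 ± 0.13 at E17 (edgeR adjusted p = 0.00325) and -0.43 ± 0.09 at E13 (0.00158). Ifitm2 had 191 and 189 CPM in E17 coronary, 266 and 271 CPM in E17 endocardial, 155 to 177 CPM in E13 coronary and 212 to 222 CPM in E13 endocardial libraries. Ifitm2 was lower in coronary cells at both stages, with effects of -0.50 ± 0.06 at E17 (3.23e-05) and -0.41 ± 0.04 at E13 (7.78e-06), and the difference between them did not pass (-0.09 ± 0.08, 0.402).

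Ifitm1 was a low gene with the opposite course. It had 0.206 and 0.12 CPM in E17 coronary, 0.873 and 0.324 CPM in E17 endocardial, 1.19, 1.34, 1.66 and 1.17 CPM in E13 coronary and 0.0376, 0.144, 0.25 and 0.178 CPM in E13 endocardial libraries. At E17 the pooled counts were 5 in coronary and 21 in endocardial libraries, a ratio of 0.257 (exact 95% interval 0.0757 to 0.7), and 0.5 without E17 endocardial replicate 1. At E13 they were 108 in coronary and 12 in endocardial libraries, a ratio of 9.46 (5.2 to 18.9). The fitted effect was -1.88 ± 0.73 at E17 (edgeR adjusted p = 0.0476) and 3.15 ± 0.47 at E13 (0.000104), and the E17 call was lost with batch as a block (-1.79, 0.0709), under 4 other settings (0.0508 to 0.0778) and in 9 of the 12 fits that leave out 1 library (0.0581 to 0.41). It held without E17 endocardial replicate 2 and without E13 endocardial replicates 1 and 3. Its stage difference was -3.01 ± 0.64 in coronary cells (0.00197) and 2.01 ± 0.58 in endocardial cells (0.0196, but 0.371 without E17 endocardial replicate 1).

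The guanylate-binding proteins, interferon-induced GTPases that attack the vacuoles of pathogens, were lower in coronary cells at E13 for all 3 members. Gbp8 had 0.411 and 0.419 CPM in E17 coronary libraries and 18.4 and 19.8 CPM in E17 endocardial libraries. At E13 it had 0.92, 0.78, 1.21 and 1.81 CPM in coronary libraries and 16.1, 15.1, 13.8 and 16.3 CPM in endocardial libraries. All endocardial libraries were high and all coronary libraries low, and the fitted effects were -5.50 ± 0.33 at E17 (edgeR adjusted p = 5.55e-08) and -3.70 ± 0.19 at E13 (1.71e-08). From pooled counts of 13 and 644, Gbp8 was 45.9-fold lower in coronary cells at E17 (exact 95% interval 26.7 to 86.7). The E13 coronary libraries held more endocardial marker RNA than the E17 coronary libraries, as given above, and the part of this in the Gbp8 values was not tested. The model of Gbp8 overlaps those of Gbp9 and Gbp4 on the same strand, with means of 62.8 and 51.8 CPM against 8.76 CPM for Gbp8. Gbp4 was lower in coronary cells, with -3.25 ± 0.19 at E17 and -2.93 ± 0.13 at E13, while Gbp9 had 0.01 ± 0.11 at E17 and -1.79 ± 0.08 at E13.

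Gbp7 overlapped between populations at E17, with 45.7 and 43.8 CPM in coronary and 39.5 and 49.9 CPM in endocardial libraries, an effect of 0.00 ± 0.20 (edgeR adjusted p = 0.991). At E13 it had 6, 3.16, 4.44 and 5.33 CPM in coronary libraries, against 25.8, 19.5, 25.2 and 25.9 CPM in endocardial libraries. That is an effect of -2.36 ± 0.17 (1.84e-07), and in coronary cells Gbp7 was 9.53-fold higher at E17 (3.25 ± 0.19, 7.59e-08). Gbp2 had 9.81 and 9.34 CPM in E17 coronary, 17.7 and 17.6 CPM in E17 endocardial, 1.17 to 2.33 CPM in E13 coronary and 6.05 to 8.91 CPM in E13 endocardial libraries. It was lower in coronary cells at both stages, with -0.88 ± 0.24 at E17 (0.00809, but 0.0523 without E17 coronary replicate 2) and -2.31 ± 0.19 at E13 (8.37e-07).

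Of the 13 antiviral effectors and ISG15-system genes, 4 were higher and 1 lower in coronary cells at E17, and 2 were higher and 11 lower at E13. Of all genes 26.5% were higher and 26.1% lower at E17, and 30.1% and 29.9% at E13, so the effectors' E17 counts lie near or below the background. With stage, 9 were higher and none lower in coronary cells, against 24.6% and 25.6% of all genes, and in endocardial cells 1 (Parp14) was higher and none lower, against 16.2% and 15.6%. Isg15, a ubiquitin-like modifier that is among the best known interferon-induced genes, had 6.51 and 6.35 CPM in E17 coronary, 5.51 and 5.19 CPM in E17 endocardial, 1.73, 0.563, 1.01 and 1.01 CPM in E13 coronary and 8.08, 4.76, 5.65 and 4.58 CPM in E13 endocardial libraries. The E13 coronary group alone was low, with an effect of 0.27 ± 0.36 at E17 (edgeR adjusted p = 0.567) and -2.44 ± 0.29 at E13 (1.33e-05). Usp18, which removes ISG15 and dampens receptor signalling, had the same order of group means, with 4.21 ± 0.447 CPM in E17 coronary, 3.15 ± 1.25 in E17 endocardial, 0.872 ± 0.297 in E13 coronary and 3.81 ± 1.38 CPM in E13 endocardial libraries (SD). Its effect was 0.41 ± 0.44 at E17 (0.466) and -2.14 ± 0.34 at E13 (0.000164).

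Parp14, an ADP-ribosyltransferase, and Ifih1, the RNA sensor MDA5, changed side between the stages. Parp14 had 61.3 and 57.7 CPM in E17 coronary, 27.2 and 24.3 CPM in E17 endocardial, 4.46 to 6.92 CPM in E13 coronary and 13.4 to 19.7 CPM in E13 endocardial libraries, with effects of 1.21 ± 0.18 at E17 (edgeR adjusted p = 0.000121) and -1.51 ± 0.14 at E13 (2.15e-06). It rose 10.4-fold with stage in coronary cells (3.38 ± 0.16, 2.05e-08) and 1.58-fold in endocardial cells (0.66 ± 0.16, 0.00675, but 0.081 without E17 endocardial replicate 1). Ifih1 had 13.7 and 11.1 CPM in E17 coronary, 8.08 and 5.44 CPM in E17 endocardial, 1.73 to 2.6 CPM in E13 coronary and 4.64 to 7.22 CPM in E13 endocardial libraries. Its effects were 0.87 ± 0.26 at E17 (0.0148, but 0.0827 without E17 coronary replicate 1 and 0.128 without E17 endocardial replicate 2) and -1.58 ± 0.20 at E13 (3.1e-05).

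Rsad2, the antiviral enzyme viperin, was high in coronary cells at both stages. It had 29.8 and 22.5 CPM in E17 coronary libraries and 2.46 and 1.49 CPM in E17 endocardial libraries, and at E13 26.6, 21.4, 15.2 and 20.8 CPM in coronary libraries and 3.5, 2.35, 1.95 and 2.02 CPM in endocardial libraries. All coronary libraries were above all endocardial libraries, and the stage difference passed in neither population (0.32 ± 0.24 in coronary and -0.32 ± 0.33 in endocardial cells, edgeR adjusted p = 0.295 and 0.502). The effect was 3.71 ± 0.34 at E17 (2.08e-06) and 3.07 ± 0.23 at E13 (2.88e-07). Their difference of 0.64 ± 0.41 did not pass (0.26), though with batch as a block it did (0.64, 0.0424).

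The 3 Ifit members, which bind viral RNA or host translation factors, split. Ifit2 had 11.1 and 6.05 CPM in E17 coronary, 3.11 and 3.11 CPM in E17 endocardial, 3.79 to 7.77 CPM in E13 coronary and 1.61 to 2.83 CPM in E13 endocardial libraries, and was higher in coronary cells by 1.46 ± 0.37 at E17 (edgeR adjusted p = 0.00551, but 0.07 without E17 coronary replicate 1) and 1.36 ± 0.27 at E13 (0.000775). Ifit3 was low in coronary cells at both stages, with 0.411 and 0.12 CPM in E17 coronary, 4.58 and 3.69 CPM in E17 endocardial, 0.13 to 0.325 CPM in E13 coronary and 1.78 to 4.25 CPM in E13 endocardial libraries. The ratio of pooled counts, coronary over endocardial, was 0.0612 at E17 (exact 95% interval 0.0259 to 0.124) and 0.091 at E13 (0.0546 to 0.144), and E17 coronary replicate 1 held 6 of the 8 counts of its group. Ifit1 had 17 counts in E17 coronary, 39 in E17 endocardial, 16 in E13 coronary and 117 in E13 endocardial libraries, with effects of -1.05 ± 0.88 at E17 (0.342) and -2.74 ± 0.67 at E13 (0.0037). Its ratio of pooled counts at E13 was 0.144, but 0.213 without E13 endocardial replicate 1 and 0.0816 without E13 coronary replicate 2. The Ifit genes sit together on chromosome 19 and Ifit2 ran opposite to Ifit3 in both coronary to endocardial comparisons.

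The remaining effectors, Xaf1 (a pro-apoptotic partner of XIAP), Oasl2 (of the oligoadenylate synthetase family), Rtp4 (a receptor transporter protein), Ifi35 and Trim25 (a ubiquitin ligase that activates RIG-I), were all lower in coronary cells at E13 and passed in neither direction at E17. The E13 effects ran from -2.57 ± 0.25 for Rtp4 (edgeR adjusted p = 2.49e-06) to -0.38 ± 0.09 for Trim25 (0.00384). Without E13 coronary replicate 2, Xaf1 (0.46, 0.0233) and Rtp4 (0.59, 0.0264) passed as higher in coronary cells at E17. Xaf1 had 19.1 and 17.4 CPM in E17 coronary, 14.1 and 12.6 CPM in E17 endocardial, 2.21 to 4.76 CPM in E13 coronary and 11.8 to 14.6 CPM in E13 endocardial libraries. Oasl2 had 9.53 and 5.81 CPM in E17 coronary, 11.7 and 9.4 CPM in E17 endocardial, 2.47 to 3.33 CPM in E13 coronary and 7.61 to 14.8 CPM in E13 endocardial libraries. These groups overlapped at E17 for Oasl2 and stood apart at E13 for both. Ifi35 had 21.4 and 23.1 CPM in E17 coronary, 16.4 and 18.7 CPM in E17 endocardial, 4.72 to 8.82 CPM in E13 coronary and 11.8 to 14.6 CPM in E13 endocardial libraries. Trim25 averaged 134 ± 10.4 CPM in E17 coronary, 122 ± 4.59 in E17 endocardial, 85.6 ± 13.2 in E13 coronary and 111 ± 5.80 CPM in E13 endocardial libraries (SD). The stage difference of the Oasl2 effect (1.43 ± 0.38, 0.0133) was lost without E17 coronary replicate 1 (0.083) or E17 endocardial replicate 2 (0.0615). That of Trim25 (0.52 ± 0.16, 0.0269) was lost without E17 coronary replicate 2 (0.119), E17 endocardial replicate 1 (0.101) or 2 (0.0574), or E13 endocardial replicate 1 (0.0502).

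The model of Rtp4 overlaps that of Masp1 on the opposite strand. Rtp4 had 15.7 and 15.1 CPM in E17 coronary, 11.1 and 9.46 CPM in E17 endocardial, 0.996 to 2.77 CPM in E13 coronary and 10 to 16 CPM in E13 endocardial libraries. Masp1 was lower in coronary cells, with -6.16 ± 0.36 at E17 and -1.84 ± 0.19 at E13. At E17 Rtp4 had an effect of 0.58 ± 0.31 that did not pass (edgeR adjusted p = 0.138), and the share of overlapping reads was not tested.

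**Figure D4:**
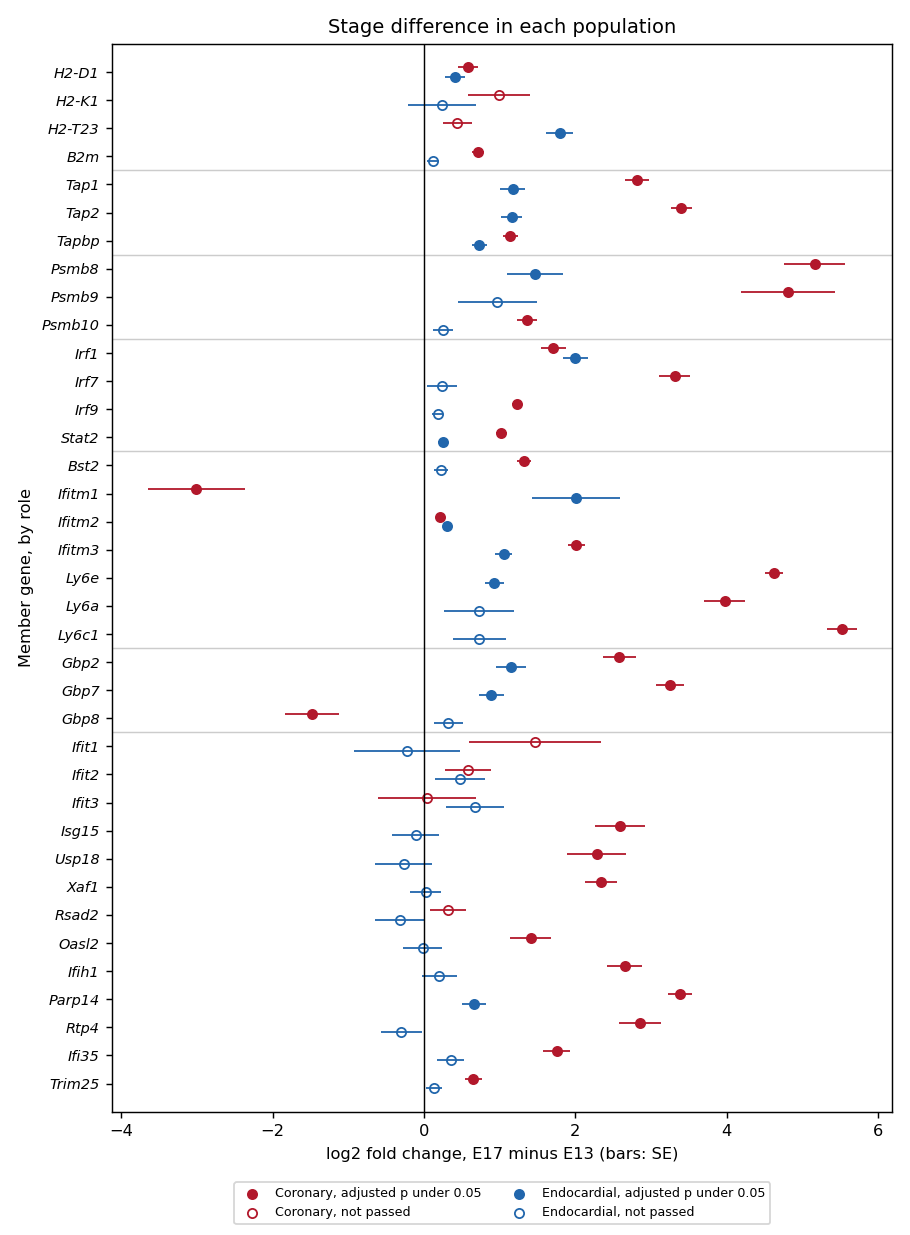
E17 minus E13 log2 fold change of each tested member in coronary and in endocardial cells, with SE bars; filled points passed at an adjusted p under 0.05. In coronary cells 29 members lie right of 0 and passed and 2 (Ifitm1 and Gbp8) lie left, while in endocardial cells 15 lie right of 0 and passed.

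Crossing the 2 population comparisons, 9 members were higher in coronary cells at E17 and lower at E13 (B2m, Tap2, Psmb8, Irf7, Stat2, Ifitm3, Ly6e, Ifih1, Parp14). Over all 15171 genes 328 did so, or 2.2%. A further 14 members were not called at E17 and lower at E13, against 1611 genes (10.6%). The 5 members lower at both stages were Bst2, Ifitm2, Gbp2, Gbp8 and Ifit3, against 2599 genes (17.1%), and the 5 higher at both were H2-D1, Ly6a, Ly6c1, Rsad2 and Ifit2, against 2610 genes (17.2%). These shares of the 37 members lie below those of all genes. Ifitm1 was lower at E17 and higher at E13, as were 335 genes. At E17 alone H2-K1 passed higher, as did 1084 genes, and H2-T23 and Irf1 passed lower, as did 1021. The E17 calls rest on 2 libraries a group. Those of B2m, Irf7, Stat2, Ifih1, Bst2, Gbp2, Ifit2, Ifitm1, H2-K1 and Irf1 did not hold in every fit, as given above.

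Per kb of exon, Ifitm2 and B2m were the highest members in every group. In E17 coronary cells B2m had 354, Ifitm2 290, Ifitm3 207, Ly6e 126 and H2-D1 96.8 CPM per kb. In E17 endocardial cells Ifitm2 had 410, B2m 291, Ifitm3 143 and Bst2 106 CPM per kb. E13 coronary cells had 251 CPM per kb of Ifitm2, 216 of B2m and 64.6 of H2-D1, and E13 endocardial cells 333 of Ifitm2, 267 of B2m and 90.6 of Bst2. Ly6c1 was seventh of the 38 members in E17 coronary cells and at rank 29, 18 and 30 in the E17 endocardial, E13 coronary and E13 endocardial groups. Ly6a was at rank 8 in E17 coronary cells and at 32, 17 and 34 in those groups. Nlrc5 was the lowest member in all 4.

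The interferon genes themselves were at or near 0. Of 21 ligand genes, 14 had no count in any library, among them Ifnb1 and Ifng, and the others had 47 counts in all, of which 29 were of Ifnz. A count of 0 allows up to 3 counts, or 0.110 to 0.200 CPM of the unscaled total in these libraries, for counting error only, and says nothing of interferon made elsewhere. Of 15 tested receptors, kinases and STATs, 5 were higher and 2 lower in coronary cells at E17, against 26.5% and 26.1% of all genes. At E13 2 were higher and 7 lower, against 30.1% and 29.9%. With stage, 12 were higher and 1 lower in coronary cells, against 24.6% and 25.6% of all genes. In endocardial cells 6 were higher and 1 lower, against 16.2% and 15.6%. Ifngr1, a chain of the interferon gamma receptor, was higher in coronary cells by 1.02 ± 0.12 at E17 and rose by 1.39 ± 0.10 with stage in coronary cells. Il10rb, a chain of the interferon lambda receptor, rose by 1.37 ± 0.09 with stage in coronary cells, and Ptpn2, a tyrosine phosphatase that dampens interferon signalling, passed in no comparison.

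Among 41 tested interferon-stimulated genes outside the 38 members, 12 were higher and 6 lower in coronary cells at E17. Of all genes 26.5% and 26.1% were. At E13 4 were higher and 30 lower, against 30.1% and 29.9% of all genes. With stage 35 were higher and 3 lower in coronary cells, against 24.6% and 25.6%, and 10 higher and 2 lower in endocardial cells, against 16.2% and 15.6%. The medians were 0.17, -0.89, 1.59 and 0.14 in that order of comparisons. Gbp4, a neighbour of Gbp8, averaged 8.99 ± 0.588 CPM in E17 coronary, 85.9 ± 8.55 in E17 endocardial, 12.5 ± 2.38 in E13 coronary and 95.3 ± 11.8 CPM in E13 endocardial libraries (SD). Lgals3bp, a secreted glycoprotein, averaged 73.4 ± 6.51 CPM in E17 coronary libraries and 6.93, 6.94 and 6.50 CPM in the E17 endocardial, E13 coronary and E13 endocardial groups, and Ube2l6, the E2 enzyme of ISG15, passed in no comparison.

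Of 14 tested nucleic acid sensing genes, 4 were higher and 2 lower in coronary cells at E17, against 26.5% and 26.1% of all genes. At E13 1 was higher and 9 lower, against 30.1% and 29.9%. With stage 10 rose and 1 fell in coronary cells, against 24.6% and 25.6% of all genes. Ddx58, the sensor RIG-I, averaged 66.1 ± 2.02 CPM in E17 coronary, 55.8 ± 1.05 in E17 endocardial, 20.8 ± 1.98 in E13 coronary and 63.3 ± 4.50 CPM in E13 endocardial libraries (SD). Its effect was 0.24 ± 0.10 at E17 (edgeR adjusted p = 0.0519) and -1.61 ± 0.07 at E13 (5.71e-09). Ikbke, a kinase that phosphorylates IRFs, had the reverse order at E17, with 1.15 ± 0.698 CPM in E17 coronary and 24.4 ± 0.200 CPM in E17 endocardial libraries, an effect of -4.43 ± 0.26. Eif2ak2, the kinase PKR, was lower in coronary cells, with -0.22 ± 0.07 at E17 and -1.13 ± 0.05 at E13.

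Of 17 other class I assembly genes tested, 7 were higher and 2 lower in coronary cells at E17, against 26.5% and 26.1% of all genes. At E13 7 were higher and 5 lower, against 30.1% and 29.9%, and 10 rose and 6 fell with stage in coronary cells, against 24.6% and 25.6%. Whether this list differs from the members was not tested. H2-Q4, another class I heavy chain, averaged 67.1 ± 0.532 CPM in E17 coronary, 25.6 ± 3.17 in E17 endocardial, 15.4 ± 1.07 in E13 coronary and 11.5 ± 0.694 CPM in E13 endocardial libraries (SD). Its effect was 1.39 ± 0.10 at E17, and it rose by 2.13 ± 0.08 with stage in coronary cells. Erap1, the peptidase that trims class I peptides, was lower in coronary cells at E13 (-0.95 ± 0.07) and rose by 1.35 ± 0.08 with stage in coronary cells. Of the 12 other interferon regulatory factors and class I enhancer factors tested, 5 were higher and 3 lower in coronary cells at E17. At E13 5 were higher and 5 lower. The shares of all genes were 26.5% and 26.1% at E17 and 30.1% and 29.9% at E13.

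**Figure D5:**
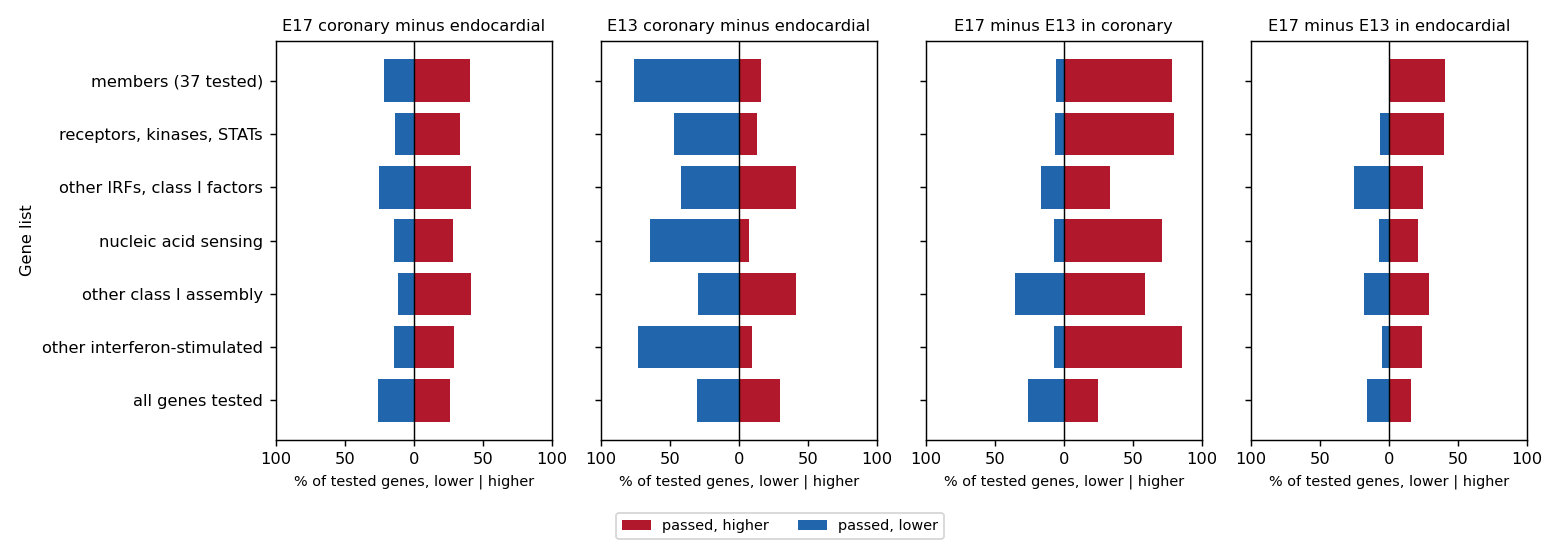
Share of each list's tested genes that passed higher (right) and lower (left) in each comparison, in percent, for the 37 tested members, 5 other lists of the pathway and all 15171 genes. The members, the sensing genes, the other interferon-stimulated genes and the receptors, kinases and STATs lean to lower in coronary cells at E13 and to higher with stage in coronary cells, and all genes split near evenly.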

How the data were processed

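Bulk RNA-seq was measured in 12 libraries of sorted heart endothelial cells. The authors deposited 1 expected count for each gene and library, an estimate that need not be whole, and 18.3% are not. The submitters' processing notes name CASAVA 1.8.2, cutadapt 1.3, RSEM 1.2.3 and build GRCm38, with settings not given in the sources used here. Reads shared by near-identical copies are split by an estimate in RSEM, so single H2, Ly6, Gbp, Ifit and Ifitm genes are uncertain. Per the labels' protocols the NEBNext Ultra libraries hold poly A RNA read as single reads, and no strand is stated, so overlapping genes cannot be separated.

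Counts were rounded to whole numbers and filtered with filterByExpr (minimum count 10, total 15), which left 15171 of 41214 genes. Symbols were matched for 40340 identifiers, and of 272 entries of the gene lists 269 were found. R 4.3.3 ran the quasi-likelihood test of edgeR 4.0.16 after TMM scaling, in 1 model of the 4 groups on all libraries (residual degrees of freedom 8, common biological coefficient of variation 0.126). P-values were adjusted by Benjamini-Hochberg across all tested genes and called at 0.05. Each SE was derived from the F statistic, by dividing the absolute log2 fold change by its root. CPM values use TMM-scaled totals, while ratios with an exact interval divide pooled counts by unscaled totals. Levels per kb use the union exon length of GENCODE M21. The script was tested on simulated data.

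All 38 members are described. From each other pathway list up to 3 genes with the smallest adjusted p over the 5 comparisons, among those with at least 10 CPM in the highest group, and the most abundant gene that passed in none were eligible to be named, and a part of these is. Some genes that this rule takes are left out of the text and not reported here. The members and all lists were chosen with earlier results of these data known.

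Replicate libraries differed by more than counting noise (chi-square per gene 4.39 to 39.31), so each was counted once. The batch label pairs a coronary with an endocardial library. Deviations from the group means, over 9481 genes, correlated at 0.337 within the E17 batches and at 0.274, 0.628, 0.287 and 0.45 within E13 batches 1 to 4, against -0.487 to 0.344 between E13 batches. The alternatives were DESeq2 size factors in edgeR, library totals, no filter on low counts, DESeq2 1.42.0's Wald test, only the 2 groups compared, batch as a block (4 residual degrees of freedom, not possible between stages because each batch holds 1 stage) and each library left out in turn.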

Additional observations from a re-analysis of the deposited data

Results flagged for a closer look

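In 76 groups of 4 E13 libraries (38 members in 2 populations), 6 had a library that stood apart from the other 3 by Dixon's criterion (0.829 of the group's range), a rule by which chance flags about 1 in 20 groups. The high libraries were E13 coronary replicate 2 for H2-K1 (25.4 CPM) and E13 coronary replicate 1 for Tap1 (2.38 CPM), Irf7 (1.24 CPM) and Ifih1 (2.6 CPM). The low libraries were E13 endocardial replicate 4 for Psmb8 (0.238 CPM) and E13 endocardial replicate 2 for Gbp7 (19.5 CPM). E13 coronary replicate 1 also had the lowest fibroblast marker sum of its group.

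The coronary to endocardial difference itself differed between E17 and E13 for 29 members (edgeR interaction term, adjusted p under 0.05), given here as log2 effect at E17 minus that at E13. It was positive for 26 members. Among class I and peptide genes these were B2m (0.59), Tap1 (1.64), Tap2 (2.24), Tapbp (0.41), Psmb8 (3.69), Psmb9 (3.84) and Psmb10 (1.11). Among regulators and surface proteins they were Irf7 (3.07), Irf9 (1.06), Stat2 (0.76), Bst2 (1.10), Ifitm3 (0.96), Ly6e (3.69), Ly6a (3.24) and Ly6c1 (4.79). Among guanylate-binding proteins and effectors they were Gbp2 (1.43), Gbp7 (2.36), Isg15 (2.70), Usp18 (2.55), Xaf1 (2.32), Oasl2 (1.43), Ifih1 (2.45), Parp14 (2.72), Rtp4 (3.16), Ifi35 (1.40) and Trim25 (0.52). It was negative for H2-T23 (-1.35), Ifitm1 (-5.02) and Gbp8 (-1.80).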

How the results depend on the processing

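The 28 members lower in coronary cells at E13 stayed at 28 in every fit that left out 1 library and at 28 with DESeq2 size factors, library totals, no filter and DESeq2, and were 29 with batch as a replicate block. With that block 15 members were higher and 8 lower at E17. The call changes that the block made are given beside H2-K1, Irf1, Tapbp, Ifitm1 and Rsad2, and it changed no other call of a member. At E17, leaving out 1 library gave 10 to 17 members higher and 4 to 8 lower (15 and 8 with all), and with DESeq2 size factors 15 and 6 passed. In coronary cells 29 to 31 members were higher at E17 when 1 library was left out, and in endocardial cells 10 to 16. Over all genes, leaving out 1 library gave 1578 to 2688 higher (2462 with all) and 1323 to 2523 lower (2368 with all) at E17 in endocardial cells.

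With scaling by library totals the median log2 fold change of all genes was 0.09 at E13 (-0.02 with TMM) and -0.17 between stages in coronary cells (-0.02 with TMM). The split of all genes was then 5721 higher and 3397 lower at E13 (4568 and 4538 with TMM), and 2586 and 5467 in coronary cells between stages (3725 and 3879). The members' counts moved by at most 1. Direction reversed only for estimates that passed neither way in the main fit with all libraries. With library totals these were Ifit3 in coronary cells between stages (-0.11) and Xaf1 in endocardial cells between stages (-0.03). When 1 library was left out, estimates crossed 0 for H2-T23 at E13 (-0.07 to 0.18), Gbp7 (-0.16 to 0.19) and Irf9 (-0.08 to 0.00) at E17, and Ifit3 between stages in coronary cells (-1.03 to 0.69). Between stages in endocardial cells they did so for H2-K1 (-0.01 to 0.63), Ifih1 (-0.11 to 0.45), Ifit1 (-0.47 to 0.16), Isg15 (-0.21 to 0.10), Ly6a (-0.74 to 1.37), Oasl2 (-0.19 to 0.19), Usp18 (-0.75 to 0.07) and Xaf1 (-0.07 to 0.10), and for the difference between stages they did for Ifit2 (-0.40 to 0.48) and Ifit3 (-1.70 to 0.03). The cause was not tested. With 2 libraries a group at E17, and under 20 pooled counts in a group for Psmb8, Psmb9, Nlrc5, Ifitm1, Gbp8, Ifit1 and Ifit3, counting depth limits those ratios.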
